A study of Homo sapiens with 27 samples.

Results

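The genes described here encode the ephrins, semaphorins and their receptors, the cell-surface and secreted proteins that steer growing axons and migrating cells. Members were chosen by gene symbol: every ephrin (EFNA, EFNB), Eph receptor (EPHA, EPHB), semaphorin (SEMA) and plexin (PLXN) that the table lists, and the neuropilins NRP1 and NRP2. This gave 49 of 23230 symbols: 5 ephrin-A ligands, 3 ephrin-B ligands, 7 EphA receptors, 5 EphB receptors, 6 secreted class 3 semaphorins, 12 membrane semaphorins of classes 4 to 7, 9 plexins and 2 neuropilins. Their RNA was measured in 3 human cell lines: SK-N-SH, which comes from a neuroblastoma, and the pancreatic neuroendocrine tumour lines BON-1 and QGP-1. Each culture received 1 of 3 plasmids by lipofection: the empty pCMV6-AC vector, the vector with full-length MAML3 cDNA (FL), or the vector with MAML3 cDNA lacking exon 1 (dEx1). Both MAML3 proteins carry a V5 tag at the C terminus, and MAML3 is a Mastermind-like coactivator, best known as a partner of Notch and the DNA-binding protein RBPJ. RNA was taken on day 3 from 3 biological replicates per group, which gives 9 groups and 27 libraries. Differences between lines are between these lines and not between tumour types, every group including the controls was transfected, and the bulk RNA averages cells that took up plasmid with cells that did not.

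Ephrins are bound to membranes, so an ephrin on 1 cell meets an Eph receptor tyrosine kinase on its neighbour, and both cells can respond. A-type ephrins are anchored by a lipid and mostly bind EphA receptors, whereas B-type ephrins span the membrane and mostly bind EphB receptors. Class 3 semaphorins are secreted and mostly act through a neuropilin, which binds the ligand, joined to a plexin, which carries the signal into the cell by changing small GTPases. Membrane semaphorins of the other classes bind plexins directly, such as SEMA4D with PLXNB1 and SEMA7A with PLXNC1. In the sympathetic nervous system, from which neuroblastoma arises, these proteins guide migrating neural crest cells and their axons.

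The libraries summed to between 73026244 and 120254457 deposited units. MAML3 stood at 17.0 to 29.9 CPM (counts scaled to the size of the library) in the SK-N-SH vector libraries, 63.0 to 70.5 in BON-1 and 38.8 to 95.1 in QGP-1. In the 18 FL and dEx1 libraries it stood at 2262 CPM or more, although a count per gene does not show which exons were read. In SK-N-SH the sympathetic markers HAND2, GATA3, ISL1 and DBH each had a mean of at least 1 CPM, and TH was at or near 0. Of its 5 neuroendocrine markers only INSM1 was at or near 0, and the 5 summed to 564 to 1440 CPM in vector. Mesenchymal markers were high (VIM, FN1, COL1A1 and COL3A1 summed to 10407.5 to 17912 CPM in vector). BON-1 and QGP-1 held high epithelial and neuroendocrine markers, and the leukocyte and endothelial markers were near 0 in all 3 lines. Libraries of 1 group did not always lie together. In SK-N-SH, vector replicate 3 fell beside the dEx1 libraries on the first principal component of all genes (40.7% of the variance). In BON-1, vector replicate 1 stood alone, and in QGP-1 the first component separated 5 libraries (vector 1, FL 1 and 2, dEx1 1 and 2) from the other 4. Each p-value sets a difference between groups against the spread between these samples, and covers no other spread. Of the 49 members, 37 reached a mean of 1 CPM in SK-N-SH vector cells, 39 in BON-1 and 38 in QGP-1. Too low to test were EPHA3, EPHA5 and EPHA6 in SK-N-SH, EPHA3, EPHA5, EPHA7 and SEMA5B in BON-1, and EPHA5, SEMA5A and SEMA5B in QGP-1.

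**Figure D1:**
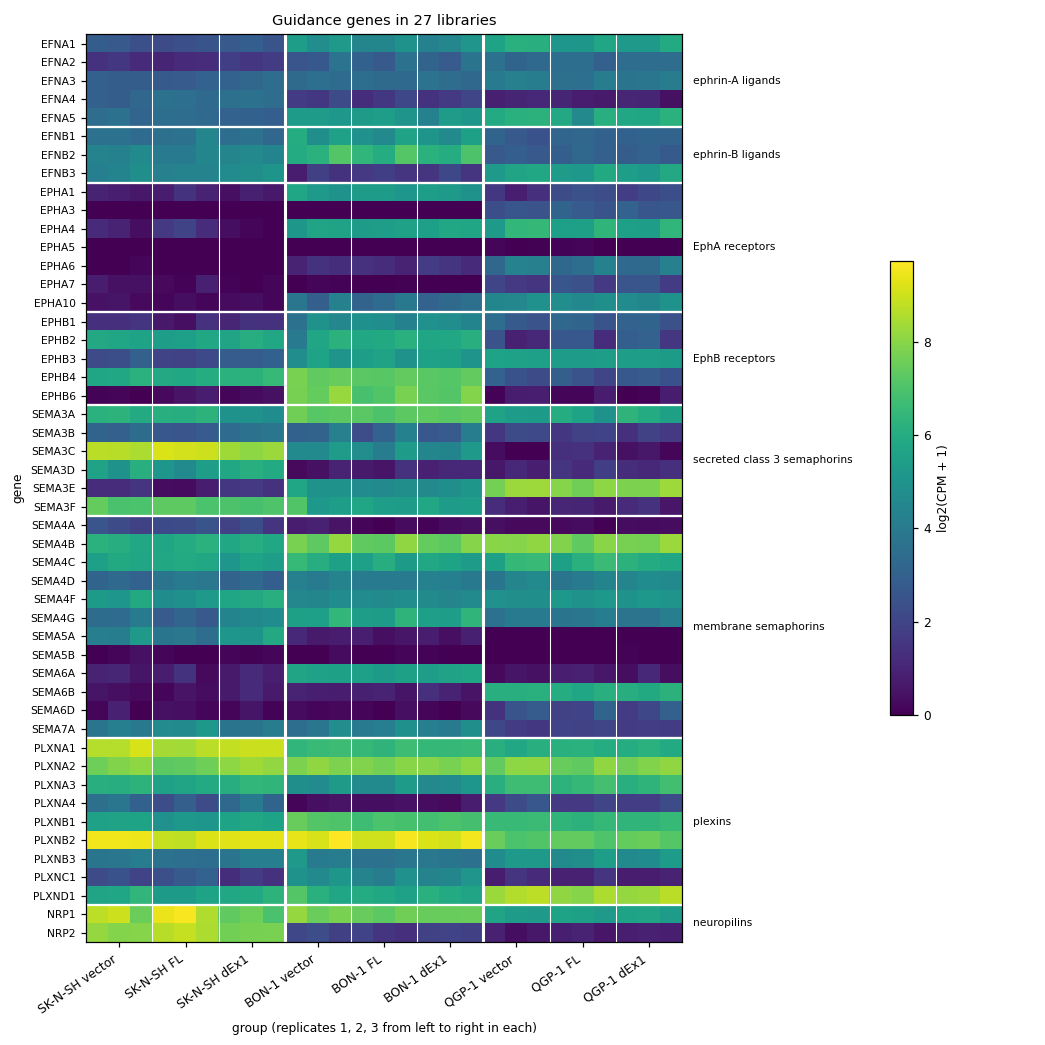
Level of the 49 guidance genes, in rows by role, in each of the 27 libraries, in columns, as log2(CPM + 1), so that colours compare libraries along a row and not genes, which differ in length. Colours change more from line to line than from plasmid to plasmid: the EphA rows are dark in all 9 SK-N-SH libraries, SEMA6A is bright in BON-1 alone, and SEMA6B is bright in QGP-1 alone.

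With full-length MAML3 in SK-N-SH, 4 guidance genes passed the test: the co-receptor NRP2 and the ligand SEMA4D rose, and the receptors PLXNB1 and PLXNB2 fell. These are 4 of the 46 members tested, or 8.70%, where 1.74% of all 14674 genes tested passed (0.934% higher and 0.804% lower). NRP2 encodes a neuropilin that binds SEMA3F and SEMA3C, SEMA4D is a membrane semaphorin whose receptor is PLXNB1, and PLXNB2 is a related plexin of the B class. The log2 change was negative in 30 members and positive in 16, with a median of -0.27, against -0.0066 over all genes. At an unadjusted p below 0.05 there were 19 members, 6 higher and 13 lower, beside 2302 of the 14674 genes. DESeq2 called 13 members, beside 1171 of all genes.

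NRP2 (chr2:206546714-206662857, plus strand, hg19) stood at 292, 243 and 248 CPM in the vector libraries and 409, 464 and 365 CPM with FL. Every FL library was above every vector library, a log2 fold change of 0.65 (SE 0.11, adjusted p = 0.0299). SEMA4D (chr9:91975702-92113045, minus strand) stood at 7.83, 8.91 and 7.42 CPM in vector and 12.5, 14.6 and 13.5 CPM with FL, again without overlap, a change of 0.74 (SE 0.15, adjusted p = 0.0480). Neither gene was called with dEx1, where SEMA4D stood at 7.55, 8.92 and 6.55 CPM and NRP2 at 199, 209 and 215 CPM, the latter below every vector library (adjusted p = 0.134).

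PLXNB1 (chr3:48445261-48471495, minus strand) went the other way, from 45.8, 47.4 and 49.05 CPM in vector to 29.02, 35.6 and 33.2 CPM with FL, a log2 fold change of -0.55 (SE 0.10, adjusted p = 0.0409). PLXNB2 (chr22:50713408-50746075, minus strand) fell from 735, 732 and 709.9 CPM to 462, 447 and 591 CPM, a change of -0.55 (SE 0.11, adjusted p = 0.0481). The FL libraries were below all vector libraries for both genes. Of the 9 plexins, 8 had a negative log2 change, none besides these 2 passed, and PLXNC1 had a positive one of 0.60 (SE 0.27, adjusted p = 0.328). All 4 calls sit close to the threshold. When any 1 of 8 of the 9 libraries of the line was left out, no member passed, and without FL replicate 3 there were 3. The log2 changes themselves stayed within 0.56 to 0.74 for NRP2, 0.68 to 0.82 for SEMA4D, -0.61 to -0.47 for PLXNB1 and -0.67 to -0.47 for PLXNB2.

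With dEx1 against vector, 2 of 46 members passed (4.35%), near the 4.47% of all genes (0.831% higher and 3.64% lower). SEMA3A, a secreted repellent that acts through NRP1 and A-class plexins, fell. Its gene (chr7:83585093-84122040, minus strand, hg19) stood at 73.2, 76.1 and 60.5 CPM in vector and 30.2, 30.5 and 25.4 CPM with dEx1, a log2 fold change of -1.28 (SE 0.12, adjusted p = 0.00301). The FL libraries, at 68.05, 65.1 and 76.3 CPM, overlapped the vector libraries, with a change of -0.01 (SE 0.12, adjusted p = 0.986). The SEMA3A call with dEx1 held under all 16 alternatives, with a highest adjusted p of 0.0246. SEMA4G (chr10:102729261-102745628, plus strand), a membrane semaphorin, rose from 9.89, 9.44 and 14.8 CPM in vector to 19.9, 22.5 and 25.3 CPM with dEx1, a change of 0.99 (SE 0.22, adjusted p = 0.0409). With FL it stood at 5.91, 7.94 and 5.50 CPM, below all 3 vector libraries, which was not a call (adjusted p = 0.106). Exons of SEMA4G share bases with MRPL43 on the opposite strand, and the strand of counting is not given in the sources used here, so reads over the shared bases may have come from either gene. In all, 18 of the 49 members share some exon bases with a gene on the opposite strand: EFNB2, EPHA1, EPHA4, EPHA5, EPHA7, EPHB2, EPHB4, NRP1, NRP2, PLXNA3, PLXNC1, SEMA3B, SEMA3F, SEMA4D, SEMA4G, SEMA5A, SEMA6A and SEMA6D. A further 5 share some with a gene on the same strand: EFNA3 and EFNA4 (with their readthrough gene), EPHA6, EPHB1 and PLXNB3.

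Vector replicate 3 weighed on the comparison with dEx1. NRP1, the neuropilin that binds SEMA3A, stood at 432, 505 and 185 CPM in the vector libraries and 162, 189 and 122 CPM with dEx1, so that the third vector library overlapped the dEx1 range and the adjusted p was 0.109. Without that library 12 members passed instead of 2, and with replicate 3 of all 3 groups left out, a choice made after seeing the data, 15 passed. Leaving out FL replicate 3 gave 4, and leaving out vector replicate 1 or 2, FL replicate 1 or any dEx1 library gave 1. These counts are not set beside the share of all genes under the same settings, so they show nothing particular to the guidance genes. Vector replicate 3 also differed in markers: DBH was 36.8, 36.8 and 3.19 CPM and COL1A1 2137, 1770.2 and 5919 CPM in the 3 vector replicates. DBH was low in replicate 3 of FL and dEx1 as well (3.64 and 4.96 CPM). The part of these markers in the result was not tested, and in bulk RNA fewer cells of a type and less RNA per cell cannot be told apart.

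The promoters of 5 of the 6 genes called against vector (SEMA3A is not shown) are given so that the 2 that rose with FL can be set beside the 2 that fell. Each runs from 250 bases before to 50 bases after the start given by RefSeq on GRCh38.p14, read 5′ to 3′ on the gene's strand. They are chr2:205682251-205682550 (NRP2, plus), chr9:89495607-89495906 (SEMA4D, minus), chr3:48430037-48430336 (PLXNB1, minus), chr22:50301620-50301919 (PLXNB2, minus) and chr10:100969254-100969553 (SEMA4G, plus). Capitals mark the core of the RBPJ site (TGGGAA, or TTCCCA where it lies on the other strand) and the E-box CACGTG bound by HES and HEY factors.
NRP2: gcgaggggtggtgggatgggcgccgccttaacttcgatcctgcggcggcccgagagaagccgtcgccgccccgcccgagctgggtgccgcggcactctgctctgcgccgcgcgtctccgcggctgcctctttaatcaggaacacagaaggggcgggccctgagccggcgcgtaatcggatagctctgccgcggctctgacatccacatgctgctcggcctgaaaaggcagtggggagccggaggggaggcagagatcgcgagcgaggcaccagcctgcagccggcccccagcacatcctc
SEMA4D: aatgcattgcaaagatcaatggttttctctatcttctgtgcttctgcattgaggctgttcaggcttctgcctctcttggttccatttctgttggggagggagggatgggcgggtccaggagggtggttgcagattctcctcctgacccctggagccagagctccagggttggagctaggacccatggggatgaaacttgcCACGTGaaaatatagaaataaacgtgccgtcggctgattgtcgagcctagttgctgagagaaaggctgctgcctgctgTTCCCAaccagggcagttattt
PLXNB1: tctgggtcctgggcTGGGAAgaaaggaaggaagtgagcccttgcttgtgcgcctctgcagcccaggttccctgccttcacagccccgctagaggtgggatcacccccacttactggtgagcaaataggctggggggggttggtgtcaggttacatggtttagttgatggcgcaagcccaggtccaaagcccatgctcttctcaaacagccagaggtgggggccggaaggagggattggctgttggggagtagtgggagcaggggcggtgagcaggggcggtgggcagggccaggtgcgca
PLXNB2: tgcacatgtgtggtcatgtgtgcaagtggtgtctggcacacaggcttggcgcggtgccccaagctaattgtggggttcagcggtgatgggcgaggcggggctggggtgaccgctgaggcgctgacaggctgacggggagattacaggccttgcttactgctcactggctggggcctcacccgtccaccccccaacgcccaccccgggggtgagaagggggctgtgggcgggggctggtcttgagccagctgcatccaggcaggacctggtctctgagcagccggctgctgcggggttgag
SEMA4G: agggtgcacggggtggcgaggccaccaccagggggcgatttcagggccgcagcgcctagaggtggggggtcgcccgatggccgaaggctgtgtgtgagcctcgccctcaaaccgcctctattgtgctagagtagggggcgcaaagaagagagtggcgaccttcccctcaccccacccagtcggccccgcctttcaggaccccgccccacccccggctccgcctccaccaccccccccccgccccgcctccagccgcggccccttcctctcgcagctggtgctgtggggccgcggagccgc
SEMA4D held 1 RBPJ core, on the reverse strand just after the start, and 1 E-box, and PLXNB1 held 1 RBPJ core near the far end of its window, so a core was present in 1 gene that rose and in 1 that fell. The other 3 windows held neither motif. Over all 35116 promoters of the table, 24.03% held TGGGAA on either strand, 7.256% held CACGTG and 7.709% held the AP-1 site TGANTCA. Among the 43 members with an entry the counts were 10 (23.26%), 3 (6.977%: SEMA3E, SEMA4D and SEMA6D) and 1 (2.326%: PLXNC1). Each member was counted once, by its first entry, whereas the shares over all promoters count entries and not genes. Both strands were searched, and no motif contains another. A match is a stretch of letters and not a measured binding site.

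**Figure D2:**
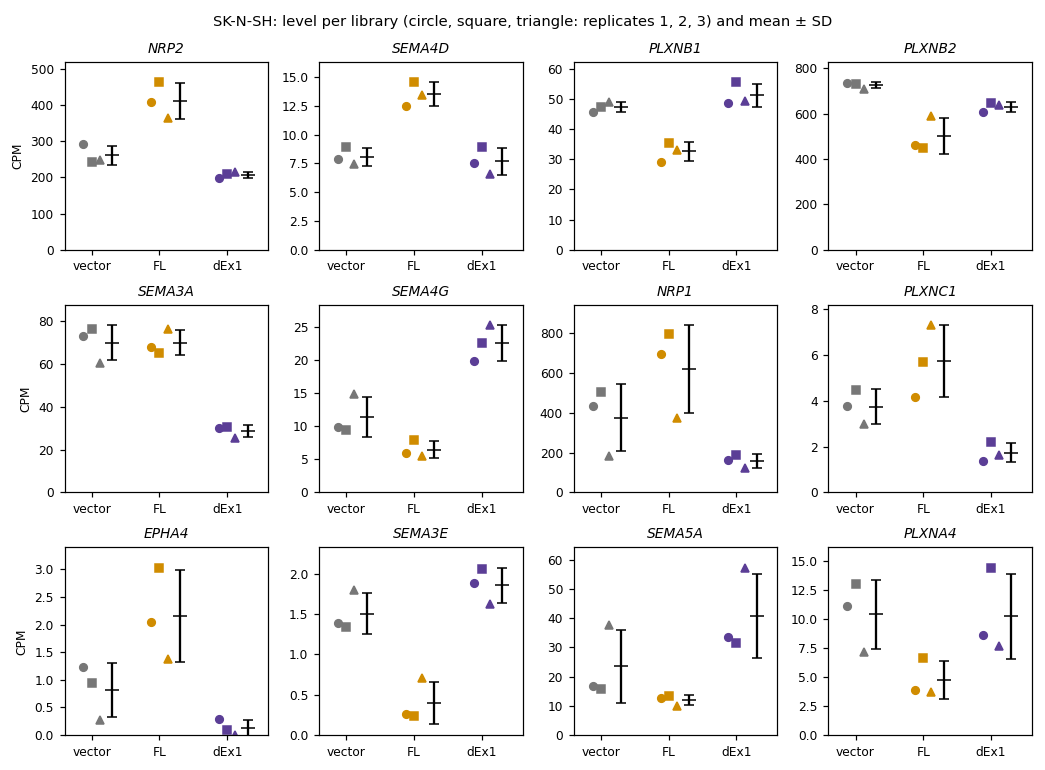
Level in CPM of 12 guidance genes in each SK-N-SH library by plasmid, with the mean ± SD (n = 3) beside each group. SEMA3A drops with dEx1 alone, PLXNB1 and PLXNB2 are lowest with FL, and SEMA4G, SEMA3E and SEMA5A are lowest with FL and highest with dEx1.

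More guidance genes were called between the 2 forms of MAML3 than against vector. In SK-N-SH, 22 of the 46 members tested differed between dEx1 and FL (47.8%, against 22% of all genes), 13 of them higher with dEx1 (10.5% of all genes were) and 9 lower (11.5% of all genes were). For all 22 the 3 dEx1 libraries lay apart from the 3 FL libraries. The log2 differences ran from 0.54 to 2.22 in those that were higher and from -0.50 to -4.06 in those that were lower, and the median over all members was 0.33, against 0.00028 over all genes. This comparison shares its libraries with those against vector, so it is no separate evidence for them. Higher or lower with dEx1 here means against FL, and does not show which construct departed from vector.

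Both neuropilins were lower with dEx1 than with FL. NRP1 (chr10:33466420-33625190, minus strand) stood at 693, 797 and 373 CPM with FL and 162, 189 and 122 CPM with dEx1, a log2 difference of -1.98 (SE 0.40, adjusted p = 0.00980). The FL libraries spread widely, but the lowest was still above the highest dEx1 library. NRP2 differed by -0.98 (SE 0.11, adjusted p = 0.00129), from 412 ± 49.7 CPM with FL to 208 ± 8.36 CPM with dEx1 (mean ± SD, n = 3).

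Of the class 3 semaphorins, SEMA3A and SEMA3C were lower and SEMA3B and SEMA3E higher with dEx1. SEMA3A gave a difference of -1.27 (SE 0.12, adjusted p = 0.000705). SEMA3C, which can act through either neuropilin, stood at 539 ± 41.95 CPM with FL and 299.9 ± 31.7 CPM with dEx1 (mean ± SD, n = 3). SEMA3E, a ligand of PLXND1 that does not need a neuropilin, was a low gene here: 0.266, 0.234 and 0.701 CPM with FL and 1.88, 2.06 and 1.63 CPM with dEx1, a difference of 2.22 (SE 0.44, adjusted p = 0.00928). Its vector libraries, at 1.38, 1.34 and 1.79 CPM, lay with dEx1 and above FL. SEMA3D and SEMA3F were not called.

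Among the membrane semaphorins SEMA4F, SEMA4G and SEMA5A were higher and SEMA4D and SEMA7A lower with dEx1. SEMA4G gave the highest of these differences, 1.81 (SE 0.22, adjusted p = 0.00146). SEMA5A (chr5:9035145-9546187, minus strand), a large semaphorin with thrombospondin repeats, stood at 12.7, 13.4 and 10.1 CPM with FL and 33.5, 31.4 and 57.3 CPM with dEx1, a difference of 1.77 (SE 0.37, adjusted p = 0.0118). In vector it was 16.8, 15.9 and 37.8 CPM, with replicate 3 inside the dEx1 range. SEMA7A, the lipid-anchored ligand of PLXNC1, stood at 27.8 ± 6.58 CPM with FL and 13.6 ± 2.18 CPM with dEx1 (mean ± SD, n = 3).

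Of the 9 plexins, 6 were called. PLXNA2, PLXNA3, PLXNA4, PLXNB1 and PLXNB3 were higher with dEx1 than with FL, and PLXNC1 was lower. PLXNC1 (chr12:94542353-94701451, plus strand) stood at 4.19, 5.69 and 7.33 CPM with FL and 1.39, 2.19 and 1.64 CPM with dEx1, a difference of -1.71 (SE 0.28, adjusted p = 0.00408). PLXNC1 and its ligand SEMA7A were thus both lower with dEx1 than with FL. In vector PLXNC1 stood at 3.75 ± 0.749 CPM and SEMA7A at 14.6 ± 2.57 CPM (mean ± SD, n = 3). The SEMA7A level in vector was near that with dEx1, and neither gene was called against vector. PLXNA4 (chr7:131808099-132333447, minus strand), a receptor used with neuropilins for SEMA3A, stood at 3.92, 6.66 and 3.76 CPM with FL and 8.64, 14.5 and 7.69 CPM with dEx1, a difference of 1.11 (SE 0.34, adjusted p = 0.0451) that was lost in 9 of 16 alternatives. The PLXNA4 vector libraries, at 11.1, 13.0 and 7.14 CPM, overlapped the dEx1 range. PLXNB2 missed the threshold, at 0.34 (SE 0.11, adjusted p = 0.0527).

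Of the 17 ephrins and Eph receptors tested, 5 were called (29.4%, against 22% of all genes): EFNA2, EFNB3 and EPHB3 were higher with dEx1, and EFNA5 and EPHA4 lower. EPHA4 (chr2:222282747-222438922, minus strand), a receptor that binds ephrins of both classes, stood at 2.05, 3.03 and 1.37 CPM with FL and 0.288, 0.0965 and 0 CPM with dEx1, which is at or near 0, and its adjusted p was 0.0260. EPHB3 stood at 3.03 ± 0.408 CPM with FL and 6.42 ± 0.553 CPM with dEx1 (mean ± SD, n = 3). The abundant receptors EPHB2 and EPHB4 were not called, at 0.29 (adjusted p = 0.179) and 0.43 (adjusted p = 0.0645).

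Of the 22 calls, 13 held under every alternative that could test them: NRP1, NRP2, PLXNA2, PLXNB1, PLXNC1, SEMA3A, SEMA3B, SEMA3C, SEMA3E, SEMA4D, SEMA4G, SEMA5A and SEMA7A. The other 9, among them all 5 calls of ephrins and Eph receptors, were lost in at least 1. The count of calls was 13 without FL replicate 1, 14 without FL replicate 2 and 14 without dEx1 replicate 3. Markers moved between these groups too: the sympathetic markers HAND2 and ISL1, KRT8 of 3 epithelial ones and COL1A1 of 4 mesenchymal ones were higher with dEx1, and FN1 was lower. The summed mesenchymal markers were 9478 to 14010 CPM with FL and 14557 to 18922 CPM with dEx1. HAND2 stood at 59.2, 64.9 and 34.9 CPM with FL and 126, 116 and 125 CPM with dEx1. Their part in the results was not tested.

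**Figure D3:**
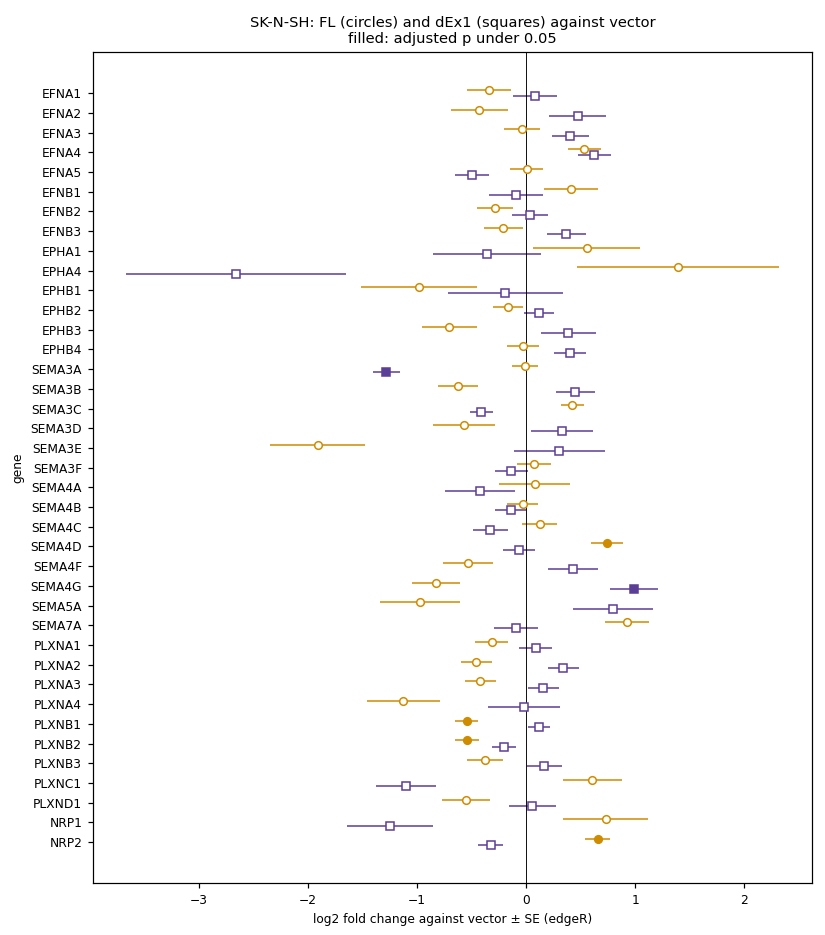
Log2 fold change against vector, with SE bars, for FL (circles) and dEx1 (squares) in SK-N-SH, for each guidance gene with a mean of at least 1 CPM in a group. Filled symbols passed the test: NRP2, SEMA4D, PLXNB1 and PLXNB2 with FL, and SEMA3A and SEMA4G with dEx1. The 2 constructs share the vector libraries.

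In BON-1 and QGP-1 no guidance gene passed in any of the 3 comparisons, and hardly any gene of the table did. In BON-1 none of 45 members passed with edgeR, where 0.00671% of all genes did with FL, 0.0134% with dEx1 and 0% between the constructs. At an unadjusted p below 0.05 there were 4, 2 and 0 members, beside 576, 429 and 156 of the 14903 genes tested. DESeq2 called 0 members in each, and 28, 35 and 8 of all genes. PLXNB3, a plexin that binds SEMA5A, had the smallest adjusted p against vector for both constructs: its log2 change was -0.93 (SE 0.32, adjusted p = 0.928) with FL and -0.85 (SE 0.32, adjusted p = 0.916) with dEx1. The vector libraries were 36.6, 15.2 and 16.2 CPM, and the first of them is the library that stands alone. The FL libraries were 11.4, 11.5 and 13.2 CPM and the dEx1 libraries 13.7, 12.8 and 11.6 CPM. Without vector replicate 1 the changes shrank to -0.38 and -0.31. Between the constructs the smallest adjusted p was that of NRP2, at 0.45 (SE 0.31, adjusted p = 0.9999), with 2.03 ± 0.776 CPM with FL and 2.78 ± 0.159 CPM with dEx1 (mean ± SD, n = 3).

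In QGP-1 none of 46 members passed with edgeR, where 0.0275% of all genes did with FL, 0.0207% with dEx1 and 0.0138% between the constructs. At an unadjusted p below 0.05 there were 6, 1 and 0 members, beside 737, 527 and 186 of the 14522 genes tested. DESeq2 called 1, 0 and 0 members, and 112, 59 and 19 of all genes. EPHA1, an Eph receptor of epithelial cells, came nearest. It stood at 1.97, 0.754 and 1.57 CPM in vector, 3.77, 4.30 and 3.98 CPM with FL and 2.40, 3.28 and 3.995 CPM with dEx1. Each construct library was above each vector library, with log2 changes of 1.49 (SE 0.34, adjusted p = 0.553) for FL and 1.18 (SE 0.34, adjusted p = 1.000) for dEx1, and the former was the 1 call of DESeq2 (adjusted p = 0.0106). Between the constructs the smallest adjusted p was that of SEMA4D, at 0.53 (SE 0.25, adjusted p = 1.000), with 15.99 ± 3.93 CPM with FL and 23.02 ± 2.45 CPM with dEx1 (mean ± SD, n = 3).

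The effect of a construct in SK-N-SH was also set against its mean effect in BON-1 and QGP-1. For FL none of 48 members passed with edgeR (0.373% of all 16883 genes did). At an unadjusted p below 0.05 there were 13 members and 1648 of all genes, and DESeq2 called 3 members and 403 genes. The nearest was SEMA3E, at -1.52 (SE 0.38, adjusted p = 0.0905). For dEx1, 8 members and 2050 of all genes were at an unadjusted p below 0.05, and DESeq2 called 2 members and 583 genes. With edgeR 1 member passed (0.883% of all genes did). This was SEMA3A, whose effect was lower in SK-N-SH, by a log2 difference of -1.53 (SE 0.26, adjusted p = 0.00417). In BON-1 the vector libraries stood at 195, 144 and 153 CPM and the dEx1 libraries at 161, 151 and 161 CPM, and in QGP-1 at 47.8, 40.1 and 38.4 CPM and 78.5, 62.3 and 45.2 CPM. Groups overlapped in both lines, with log2 changes of -0.07 (SE 0.15) in BON-1 and 0.57 (SE 0.29) in QGP-1. In QGP-1 SEMA3A also lay apart between the 2 sides of the first component. It ran from 47.8 to 78.5 CPM in the 5 libraries, among them dEx1 1 and 2. In the other 4, among them vector 2 and 3, it ran from 30.4 to 45.2 CPM. The part of this split in the contrast was not tested. The SEMA3A call held under all 32 alternatives.

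Levels in the control cells differed between the lines for most guidance genes. In vector libraries, 35 of the 48 members tested differed between SK-N-SH and BON-1 (72.9%, against 54.5% of all genes), 12 higher in SK-N-SH (26.8% of all genes) and 23 lower (27.7%). Between SK-N-SH and QGP-1, 42 differed (87.5%, against 55%), 21 higher in SK-N-SH (26.9%) and 21 lower (28.1%). Between BON-1 and QGP-1, 36 differed (75%, against 43.6%), 23 higher in BON-1 (22.6%) and 13 lower (21%). In 31 of the 48 members (64.6%, against 40.2% of all genes) 1 line was above both others: SK-N-SH in 9, BON-1 in 11 and QGP-1 in 11. EPHA5 was at or near 0 everywhere and was not tested.

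**Figure D4:**
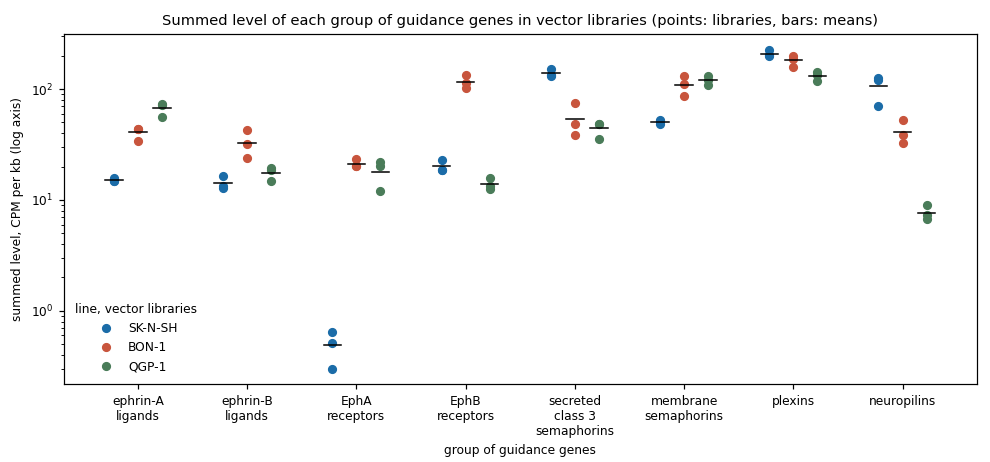
Summed level of each group of guidance genes in the 3 vector libraries of each line, in CPM per kb of the canonical transcript, on a log axis, with bars at the means. The sum of the listed EphA genes in SK-N-SH lies below 1, and the neuropilin sum falls from SK-N-SH to BON-1 to QGP-1.

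RNA levels per length were summed over the listed members of each family. EPHA2, EPHA8, SEMA3G and SEMA6C are not among the members, so the EphA and semaphorin sums do not cover the whole families. The summed EphA receptors stood at 0.488 ± 0.175 CPM per kb in SK-N-SH, 21.2 ± 1.74 in BON-1 and 17.99 ± 5.15 in QGP-1 (SD, n = 3). The EphB receptors stood at 20.1 ± 2.63, 116 ± 15.4 and 13.9 ± 1.62 CPM per kb. All 7 listed EphA genes had means below 1 CPM in the SK-N-SH vector libraries, and EPHB4 made up 68.6% of the EphB sum of SK-N-SH. Among the listed EphA genes the leading one was EPHA1 in BON-1 (56.2% of the EphA sum) and EPHA4 in QGP-1 (61.6%).

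Several Eph receptors were at or near 0 in 1 line and well measured in another. EPHB6, an Eph receptor without kinase activity, stood at 212, 170.2 and 294 CPM in the BON-1 vector libraries, at 0.0728, 0.0933 and 0 CPM in SK-N-SH and at 0.0745, 0.649 and 0.774 CPM in QGP-1. EPHA3 was listed at 0 in all 18 libraries of SK-N-SH and BON-1 and at 4.02, 4.997 and 4.61 CPM in the QGP-1 vector libraries. EPHA4 was lower in SK-N-SH (0.817 ± 0.486 CPM) than in BON-1 (43.95 ± 8.79 CPM) with a log2 difference of -5.75 (SE 0.59, adjusted p = 4.73e-05). EPHA6 stood at 8.46, 19.1 and 17.6 CPM in QGP-1 and at or near 0 in SK-N-SH, and EPHA7 at 3.14, 2.10 and 1.77 CPM in QGP-1 and at or near 0 in BON-1.

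Ephrins followed the lines as well. The A-type sum rose from 15.2 ± 0.589 CPM per kb in SK-N-SH to 40.6 ± 5.54 in BON-1 and 67.02 ± 9.16 in QGP-1, and EFNA1, EFNA3 and EFNA5 each kept this order with every step past the threshold. EFNA4 had the reverse order, with 7.13 ± 1.05, 2.63 ± 0.931 and 0.988 ± 0.180 CPM. Among the members on chromosome 1, EFNA4, EFNA3 and EFNA1 follow each other, with 9.3 and 40.3 kb between them. Of the B-type ligands EFNB1 and EFNB2 were highest in BON-1 (46.1 ± 17.7 and 91.6 ± 41.8 CPM), where EFNB3 was lowest (1.64 ± 0.950 CPM, against 21.7 ± 5.43 in SK-N-SH and 47.2 ± 9.60 in QGP-1).

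NRP2 set SK-N-SH apart from both other lines. It stood at 292, 243 and 248 CPM in SK-N-SH, 3.19, 3.89 and 2.56 CPM in BON-1 and 0.852, 0.278 and 0.537 CPM in QGP-1, so that SK-N-SH exceeded BON-1 by a log2 difference of 6.33 (SE 0.39, adjusted p = 3.07e-06) and exceeded QGP-1 by one of 8.86 (SE 0.44, adjusted p = 1.11e-06). NRP1 was 374 ± 168 CPM in SK-N-SH and 229 ± 57.6 CPM in BON-1, which overlapped (adjusted p = 0.123), and 42.9 ± 6.82 CPM in QGP-1. Summed per length, the neuropilins stood at 106 ± 30.9, 41.01 ± 10.2 and 7.70 ± 1.24 CPM per kb.

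Plexin sums differed less, at 207 ± 13.9, 182 ± 20.3 and 132 ± 13.01 CPM per kb, but the leading plexin changed. PLXNB2 made up 54.6% of the plexin sum in SK-N-SH and 59.1% in BON-1, and PLXND1, the receptor of SEMA3E, made up 41.1% in QGP-1. PLXND1 stood at 306, 392 and 426 CPM in QGP-1, against 50.3, 51.97 and 82.7 in SK-N-SH and 137, 71.5 and 51.6 in BON-1. PLXNA4 stood at 10.4 ± 2.996 CPM in SK-N-SH and 0.290 ± 0.156 CPM in BON-1, a log2 difference of 5.15 (SE 0.58, adjusted p = 8.27e-05). PLXNA2 showed no difference past the threshold, with 229 ± 37.6, 242 ± 31.8 and 235 ± 59.7 CPM and log2 differences of -0.09 (SE 0.22), -0.04 (SE 0.22) and 0.04 (SE 0.22).

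The class 3 semaphorins summed to 139 ± 11.7, 54.2 ± 18.98 and 44.2 ± 7.81 CPM per kb, and each line had its own leading gene. SEMA3C led in SK-N-SH with 58.98% of the class per length, SEMA3A in BON-1 with 37.4% and SEMA3E in QGP-1 with 85.3%. SEMA3C stood at 420.5, 409 and 371 CPM in SK-N-SH, 23.4, 23.4 and 39.7 CPM in BON-1 and 0.255, 0 and 0 CPM in QGP-1. SEMA3E ran the other way, with 1.38, 1.34 and 1.79 CPM in SK-N-SH, 51.3, 29.7 and 30.3 CPM in BON-1 and 205, 307 and 311 CPM in QGP-1, and each step passed the test. QGP-1 was thus high in both SEMA3E and its receptor PLXND1. SEMA3D stood at 48.9 ± 18.8 CPM in SK-N-SH and 0.497 ± 0.415 CPM in BON-1, a log2 difference of 6.60 (SE 0.68, adjusted p = 5.08e-05). Along chromosome 7 these 4 members come in the order SEMA3C, SEMA3E, SEMA3A and SEMA3D, with 2440.9, 306.6 and 502.8 kb between them. Genes other than members were not considered in this order. Members next to each other in it were highest in different lines.

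The membrane semaphorins summed to 50.6 ± 1.99, 109.8 ± 22.5 and 119.9 ± 11.5 CPM per kb. SEMA4B led in every line (33.7% to 56.7% of the summed level per length), while class 5 and 6 members separated the lines. SEMA6A, which binds A-class plexins, stood at 49.6, 46.7 and 45.3 CPM in BON-1 and was lower in SK-N-SH (0.820 ± 0.323 CPM) with a log2 difference of -5.86 (SE 0.43, adjusted p = 7.41e-06). In QGP-1 it was 0.350 ± 0.138 CPM, and BON-1 was higher by 7.08 (SE 0.46, adjusted p = 7.93e-06). SEMA6B stood at 67.9, 67.6 and 71.05 CPM in QGP-1, 0.318 ± 0.128 CPM in SK-N-SH and 0.783 ± 0.0896 CPM in BON-1, with log2 differences from QGP-1 of -7.76 (SE 0.34, adjusted p = 7.74e-07) for SK-N-SH and -6.45 (SE 0.32, adjusted p = 2.68e-06) for BON-1. SEMA5A stood at 16.8, 15.9 and 37.8 CPM in SK-N-SH and 0.808 ± 0.247 CPM in BON-1, and was listed at 0 in all 9 QGP-1 libraries. SEMA5B was near 0 in all lines.

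Within BON-1 and QGP-1 several guidance genes followed the replicate number and not the plasmid. In BON-1 the 3 libraries of replicate 3 lay outside the range of the other 6 for 17 of 45 members (37.8%, where 21.6% of all genes did), 14 above and 3 below. EFNB2, the transmembrane ligand of EPHB4, ran from 126 to 142 CPM in replicate 3 against 62.3 to 82.5 CPM in replicates 1 and 2. EPHB6 ran from 216 to 294 CPM in replicate 3 against 117 to 212 CPM in replicates 1 and 2, and SEMA4G from 79.7 to 85.9 CPM in replicate 3 against 40.4 to 45.4 CPM in replicates 1 and 2. In QGP-1 this held for 12 of 46 members (26.1%, where 13.7% of all genes did), 8 above and 4 below, and in SK-N-SH for 1 of 46, SEMA6D (11.9% of all genes did).

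In QGP-1 vector replicate 2 went with the replicate 3 libraries. EPHA4 stood at 37.7 to 44.9 CPM in the 5 libraries and 81.3 to 88.2 CPM in the 4 libraries on the other side of the first component. EPHA6 stood at 8.46 to 10.3 CPM in the 5 libraries and 17.6 to 19.1 CPM in the 4 libraries, EPHB2 at 4.62 to 7.28 CPM in the 5 libraries and 0.835 to 1.90 CPM in the 4 libraries, and PLXND1 at 249 to 306 CPM in the 5 libraries and 372 to 426 CPM in the 4 libraries. These 4 genes are among 24 of 46 members whose ranges lay apart between the sides (52.2%, against 39.4% of all genes), 16 higher and 8 lower in the 4 libraries. The sides were drawn from all genes including these, so the split is a description. What the replicates of a line shared is not given in the sources used here.

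**Figure D5:**
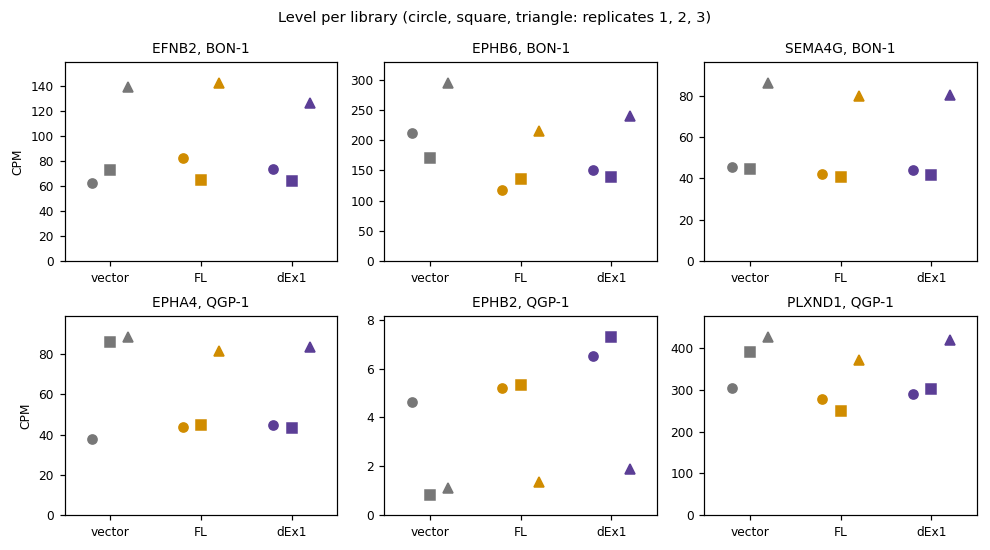
Level in CPM of 3 guidance genes in each BON-1 library and 3 in each QGP-1 library by plasmid, with symbols for replicates 1, 2 and 3. Replicate 3 is apart for EFNB2, EPHB6 and SEMA4G with every plasmid, and for EPHA4, EPHB2 and PLXND1 vector replicate 2 joins it.

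Genes that carry these signals inside the cell or process the ligands were followed as a list. The table holds 30 of them, and 28 were tested in SK-N-SH. None passed against vector with edgeR for either construct, where 1.74% of all genes did with FL and 4.47% with dEx1. At an unadjusted p below 0.05 there were 5 for FL and 3 for dEx1, beside 2302 and 3328 of all genes. DESeq2 called 0 in both. Between dEx1 and FL, 9 passed (32.1%, against 22% of all genes), 6 higher and 3 lower with dEx1. Among them FARP2, an exchange factor that acts below SEMA3A, stood at 19.5, 16.6 and 19.6 CPM with FL and 25.7, 27.9 and 25.3 CPM with dEx1, a log2 difference of 0.51 (SE 0.10, adjusted p = 0.00906). FYN, a kinase used by Eph receptors and plexins, stood at 105, 115 and 66.5 CPM with FL and at 57.8, 46.1 and 44.7 CPM with dEx1, a difference of -0.94 (SE 0.20, adjusted p = 0.0119). None of 30 passed in BON-1 and none of 29 in QGP-1 with edgeR, and DESeq2 called 1 in QGP-1 with FL, beside 112 of all genes.

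Of 19 genes in the table from the netrin, slit and repulsive guidance families, 15 were tested in SK-N-SH. With FL 1 passed (6.67%, against 1.74% of all genes). This was SLIT3, which stood at 440.1, 401 and 531 CPM in vector and 305, 279 and 276 CPM with FL, a log2 change of -0.68 (SE 0.14, adjusted p = 0.0491). With dEx1 3 passed (20%, against 4.47% of all genes). NEO1, a netrin and RGM receptor, rose by 0.55 (adjusted p = 0.0277), and NTNG2 and RGMB fell by 1.36 and 1.44 (adjusted p = 0.0282 and 0.00883). RGMB, a ligand of NEO1, stood at 546, 548 and 339.6 CPM in vector and 174, 180.2 and 172 CPM with dEx1. Between dEx1 and FL 8 passed (53.3%, against 22%), 3 higher and 5 lower. In BON-1 and QGP-1 none passed in any comparison with edgeR or DESeq2. Genes of this list and of the one before it were not followed when libraries were left out. How far their calls hold was therefore not tested.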

How the data were processed

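RNA-seq libraries of 3 cell lines, 9 groups and 3 replicates per group were used. Groups came from the sample labels. Values are expected counts per gene that the authors deposited as whole numbers; the submitters' processing notes name Trimmomatic, HISAT2, StringTie and hg19, while strand setting, annotation and counting options are not given in the sources used here. Low values heap at 5 (7317 values, against 4312 at 4), so the worth of 1 fragment is unknown, and the counts were also tested after division by 5. The 49 members, the gene lists and the tests were chosen with earlier results of these data known.

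Genes were filtered with filterByExpr and tested with edgeR 4.0.16 (R 4.3.3, limma 3.58.1): TMM scaling, quasi-likelihood F test, Benjamini-Hochberg adjusted p over all genes tested, threshold 0.05. The 9 libraries of a line were fitted together, the 9 vector libraries for the line pairs, and all 27 libraries for the contrasts between lines. Each SE is the log2 fold change divided by the square root of F. The script was tested on simulated data. Printed CPM use TMM over all 27 libraries, a different scaling from the fits. CPM per kb divide by the Ensembl canonical transcript (GENCODE v44 mapped to GRCh37), and gene coordinates come from the same annotation. Promoters are those of RefSeq on GRCh38.p14, with an entry for 43 members. Figures were drawn with matplotlib 3.10.9.

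A marker of the lists is not reported here. No library pair held identical values. Same-numbered replicates deviated together in every pair (correlation over 0.1) in all 3 BON-1 comparisons (lowest 0.113) and in QGP-1 dEx1 against FL (lowest 0.223), so numbers were taken to pair those samples; a replicate block changed no member's call there. Members past the threshold were named with every library's value, or the 4 largest rises and 4 largest falls with a mean of at least 1 CPM where more than 8 passed. Between lines the 3 largest differences each way were named, and where no member passed, the smallest adjusted p. Alternatives were DESeq2 1.42.0, its size factors, no filter, a minimum mean of 2 CPM, the divided counts, a replicate block and leaving out each library.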

Additional observations from a re-analysis of the deposited data

Results flagged for a closer look

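SEMA3A met the rule for a difference between groups: the effect of dEx1 against vector in SK-N-SH was lower than its mean effect in BON-1 and QGP-1 by 1.53 on the log2 scale (log2 difference -1.53, SE 0.26, edgeR adjusted p = 0.00417). All 3 dEx1 libraries were below all 3 vector libraries in SK-N-SH, and the groups overlapped in the other 2 lines. In QGP-1 SEMA3A also followed the split of the libraries on the first component, and the part of this in the contrast was not tested. The adjusted p was at most 0.0241 over 32 alternatives.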

How the results depend on the processing

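No value changed direction under any alternative. Of 872 values of single members under an alternative, 769 stayed on their side of the threshold, 98 no longer passed and 5 newly passed. The choice of test and the single libraries moved the counts of members called against vector in SK-N-SH. With FL the 4 calls became 2 without a filter on low counts, 13 with DESeq2, 13 with a replicate block and 0 to 3 when each library was left out. With dEx1 the 2 calls became 9 with DESeq2, 10 with the replicate block, 1 to 12 when each library was left out, and 15 with replicate 3 of all groups left out, which was chosen after seeing the data. Between dEx1 and FL the 22 calls ranged from 13 to 26 over the left-out libraries, with 28 under DESeq2 and 29 under the replicate block. Over all genes DESeq2 called 1171 with FL, 1997 with dEx1 and 4548 between the constructs in SK-N-SH. The other settings are not set beside their share of all genes, so these counts only show how the calls moved. In QGP-1 with FL DESeq2 gave 1 call in place of 0. For the contrasts of SK-N-SH with the other lines, DESeq2 gave 3 calls for FL and 2 for dEx1, the replicate block 6 and 6, and leaving out each library 0 to 2 and 1 to 3. The cause was not tested. In SK-N-SH the lowest correlation of same-numbered samples was 0.0478, so the numbers were not taken as pairs. All were positive, and replicate 3 gave 0.406 (FL against vector), 0.461 (dEx1 against vector) and 0.326 (dEx1 against FL). Every sample correlated best with its own number in dEx1 against FL alone, where the lowest was 0.0971, just under the limit of 0.1. In QGP-1 against vector the lowest correlation was -0.168. Another scaling moved the median of all genes by 0.045 at most (log2). At 73026244 units or more a library, depth limits mainly the members near 0, such as EPHA5.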
